A study of Mus musculus with 18 samples.

Results

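The genes described here are 42 mouse genes of the ATF4 branch of the integrated stress response and of the amino acid supply that it serves, chosen by name among the 23420 genes listed in every library. They comprise 2 sensor kinases, 4 transcription factors, 3 feedback genes, 5 growth and redox effectors, 8 enzymes of amino acid synthesis, 7 amino acid transporters, 1 tRNA exporter and 12 cytosolic aminoacyl-tRNA synthetases. The rule goes by gene name and uses no measured value, and the list was drawn up with earlier results of these data known. RNA was sequenced from bone-marrow-derived dendritic cells (BMDC) of C57BL/6 mice, in 18 libraries. The labels give 6 groups of 3 libraries. Cells with the genotype Bat3 fl/fl CD11c Cre (cKO below) received LPS or medium. In these cells a Cre recombinase driven by the promoter of CD11c, an integrin of dendritic cells, removes Bat3, which the files list under its current symbol Bag6. Wild type (WT) cells received LPS + IL10 + TGF-β, IL10 + TGF-β, LPS or medium. LPS, from the outer membrane of Gram-negative bacteria, activates TLR4, and IL-10 and TGF-beta, called the cytokines below, are immunosuppressive. All cells were grown in 20 ng/ml GM-CSF from cultures replated at day 9 and treated for 8 h, and live cells high in CD11c were sorted. No WT cells carrying the Cre alone and no cKO cells given the cytokines were analysed here. The treatment protocol speaks of 5 biological replicates and the design text of triplicates, and 3 libraries a group were analysed here. No label says which mouse or dish a library came from, and p-values therefore measure only the spread between libraries, which may be partly technical.

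In the integrated stress response, kinases that sense stress phosphorylate the translation initiation factor eIF2. General protein synthesis then slows, while a few messages with short upstream reading frames, Atf4 first among them, are translated better. ATF4 binds composite C/EBP-ATF elements and raises genes for amino acid import, amino acid synthesis and tRNA charging, together with feedback genes that return eIF2 to its unphosphorylated state. Because ATF4 is controlled mainly at translation, its mRNA level is not a measure of its protein or activity. Dendritic cells stimulated with LPS pass through a large change in secretion and metabolism, a setting in which this pathway has been studied.

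The promoters of the genes were searched for the core of the C/EBP-ATF composite element, spelled TGATGNAA, on both strands, in RefSeq windows (GRCm38.p6) from 250 bases before to 50 bases after the annotated start. Windows were matched for 33 of the 42 genes. The core stood in at least 1 window of 12 of these genes (36.4%). Of all 27025 genes with windows of the same length 4.51% held it, and of the 8871 tested genes with a window 2.87%. The 42 genes were chosen by name for this pathway, so their higher share is no independent evidence of control by ATF4. The 12 genes were Nupr1, Trib3, Chac1, Asns, Pck2, Slc7a11, Slc1a4, Aars, Gars, Iars, Tars and Yars, and Slc7a11 and Aars held it in 2 places. Stretches are shown for 2 genes that were higher in cKO than in WT cells under LPS (Nupr1, Slc7a11), 4 that were lower (Asns, Chac1, Iars, Gars) and 1 that passed in neither direction (Trib3). They are written 5′ to 3′ on the strand of the gene, with the core or its reverse complement in capitals.
Nupr1: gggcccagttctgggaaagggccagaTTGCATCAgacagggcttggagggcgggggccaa
Slc7a11: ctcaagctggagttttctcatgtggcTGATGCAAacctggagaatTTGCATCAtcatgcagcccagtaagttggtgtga
Asns: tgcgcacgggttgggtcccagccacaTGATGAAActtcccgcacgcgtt
Chac1: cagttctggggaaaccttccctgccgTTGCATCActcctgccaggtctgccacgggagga
Iars: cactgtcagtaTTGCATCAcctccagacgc
Gars: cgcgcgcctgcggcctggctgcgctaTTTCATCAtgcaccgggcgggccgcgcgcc
Trib3: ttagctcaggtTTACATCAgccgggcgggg
The stretches lie at chr7:126625547-126625606 (- strand) for Nupr1, chr3:50443627-50443705 (- strand) for Slc7a11, chr6:7693210-7693258 (- strand) for Asns, chr2:119351023-119351082 (+ strand) for Chac1, chr13:49682126-49682155 (+ strand) for Iars, chr6:55037945-55038000 (+ strand) for Gars and chr2:152344028-152344057 (- strand) for Trib3. The core of Asns began 23 bases before the start, those of Slc7a11 66 and 47 bases before it, and that of Nupr1 110 bases before it. The core of Iars began 7 bases after the start. Of the 12 genes with the core, 2 were higher, 8 lower and 2 not called in cKO LPS against WT LPS cells. Of the 20 tested genes with a window and no core, 4 were higher, 5 lower and 11 not called. Of all tested genes 16% were higher and 19.3% lower. The core and gene role overlap in part, and the part of each was not tested. Among the lower genes with the core, Aars, Gars, Iars, Tars and Yars are synthetases, and Asns, Chac1 and Slc1a4 are not. All 12 synthetases had negative log2 fold changes. Of those with a window and no core, Mars and Eprs were lower and Sars was not called. These counts are a description, and a match is a run of letters, not a shown binding site.

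Libraries held 8056831 to 12068759 expected counts, of which the 42 genes together took 0.258% to 0.322%. Bag6, the check of the deletion, had 11.3, 10.4 and 6.31 CPM in cKO LPS cells and 4.81, 7.31 and 4.56 CPM in cKO medium cells. WT cells had 24.4, 27.4 and 27.6 CPM with LPS and cytokines, 26, 26.4 and 25.9 CPM with cytokines alone, 24.2, 23.2 and 24.7 CPM with LPS alone and 22.8, 24.6 and 23.1 CPM in medium. Every cKO library lay below every WT library with the same treatment (log2 fold change -1.36 ± 0.17 SE, adjusted p = 9.3e-06 under LPS, and log2 fold change -2.08 ± 0.17 SE, adjusted p = 9.09e-08 in medium). Bag6 rose with LPS in cKO cells (log2 fold change 0.76 ± 0.19 SE, adjusted p = 0.0018) and was not called with LPS in WT cells (0.03 ± 0.15). That call in cKO cells was lost on the TPM scale (0.15 on log2(TPM + 1)) and without both first cKO replicates (0.50). The difference between the responses passed (log2 fold change 0.72 ± 0.25 SE, adjusted p = 0.0478) but was lost in 15 of 23 alternatives. Over the 23 it ranged from 0.34 to 0.98 as a log2 difference. Replicate 1 of both cKO groups stood apart in sex-linked genes (Xist 1014 CPM in cKO LPS and 526 CPM in cKO medium, Ddx3y 0.424 and 0.181 CPM), while the other 16 libraries had Ddx3y at 35.1 to 56.4 CPM and Xist at 0 to 1.12 CPM, so the 3 libraries of a cKO group do not all come from 1 mouse, and counts are also given without replicate 1. Dendritic cell markers summed to 5281 to 8105 CPM in the cKO groups, against 1301 to 2015 CPM in the WT cytokine groups and 6026 to 6816 CPM in WT LPS cells. In WT medium cells replicates 1, 2 and 3 had 8943, 7906 and 4099 CPM, so replicate 3 stood apart. Of the 10 markers Flt3 was near absent everywhere, at most 0.441 CPM in a library, and had no count in cKO LPS cells. Cd209a had no count in cKO LPS or WT LPS-plus-cytokine cells and at most 0.35 CPM in WT LPS and 0.338 CPM in WT cytokine cells. It had 2.00 to 2.79 CPM in cKO medium and 0.673 to 2.23 CPM in WT medium cells. Granulocyte precursor markers summed to 1664 to 4186 CPM in cKO medium cells, against 923 to 1483 CPM in WT medium cells. They summed to 2108 to 3739 CPM in cKO LPS cells, 6427 to 9663 CPM in the cytokine groups and 2228 to 4429 CPM in WT LPS cells. A large part of the sums under LPS came from 1 gene, Lcn2. It had 1171 to 1821 CPM in WT LPS and 42.3 to 100 CPM in WT medium cells. In cKO cells Lcn2 had 1016 to 1627 CPM with LPS and 80.1 to 294 CPM in medium. Macrophage markers summed to 1850 to 1969 CPM in cKO LPS, 1449 to 1550 CPM in cKO medium, 3035 to 3322 CPM in WT LPS-plus-cytokine, 1921 to 2251 CPM in WT cytokine, 1818 to 1985 CPM in WT LPS and 1388 to 1582 CPM in WT medium cells. Mast cell markers stayed at 1.51 to 18.5 CPM in any library, highest in WT cytokine cells. Lymphocyte markers summed to 0.11 to 1.64 CPM in any library. The ribosomal RNA gene Rn45s took 1.28% to 4.01% of counts in cKO medium libraries and 4.48% to 8.88% elsewhere. In bulk RNA, fewer cells of a type and less RNA per cell cannot be told apart.

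Levels between genes were compared on the TPM scale, which is per length. Eif4ebp1 had the highest mean over the 18 libraries, 427 TPM, followed by Slc3a2 at 319 TPM, Atf4 at 175 TPM and Ppp1r15a at 119 TPM. The sensor kinases were low, with mean levels of 6.40 TPM for Eif2ak4 (GCN2) and 2.61 TPM for Eif2ak3 (PERK). Of the 42 genes 3 did not pass the filter on low counts: Stc2 (at most 2.07 TPM and 21 counts in a library), Cth (0.56 TPM, 6 counts) and Slc7a3 (0.27 TPM, 4 counts). The other 39 were tested together with all 11876 genes that passed. The tRNA synthetases had mean levels from 13.1 TPM (Lars) to 84.2 TPM (Gars).

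**Figure D1:**
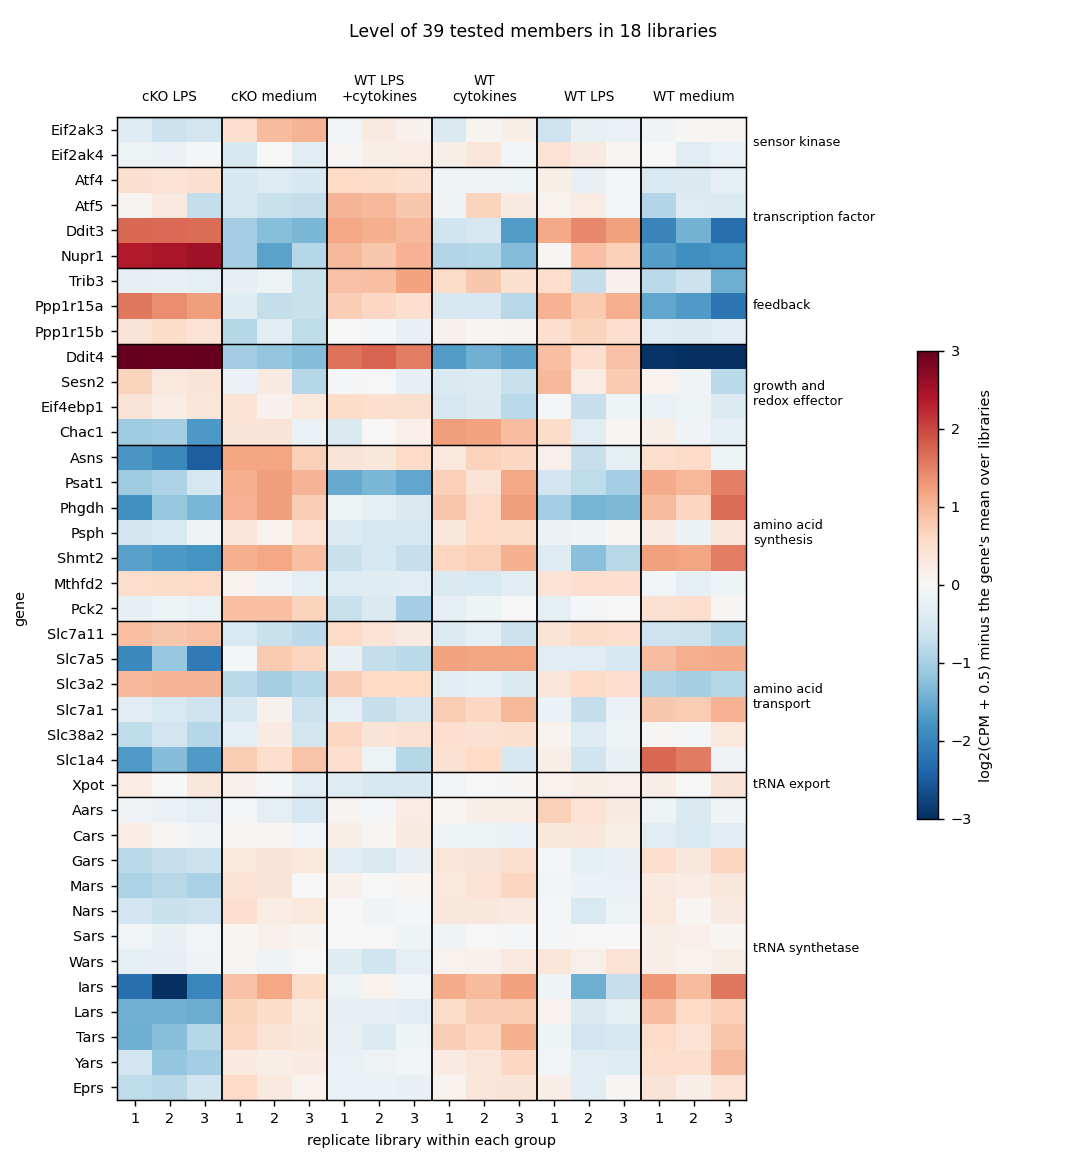
Heat map of the 39 tested genes (rows, grouped by role) in 18 libraries (columns, 3 per group), coloured by log2(CPM + 0.5) minus the gene's mean over libraries, with colours capped at 3 and -3. Ddit4 and Nupr1 are darkest red and Iars and Asns darkest blue in the 3 cKO LPS columns.

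In LPS-treated cells, 2 of the 4 transcription factors (Atf4 and Nupr1) and 1 of the 3 feedback genes (Ppp1r15a) were higher in cKO than in WT cells, while 10 of the 12 tRNA synthetases were lower. The calls of Atf4 and Ppp1r15a were lost on the TPM scale. Atf4 averaged 249 ± 4.46 CPM in cKO LPS cells and 179 ± 23.7 CPM in WT LPS cells (SD, n = 3 each, as for all means below), Nupr1 102 ± 6.40 and 27.9 ± 8.09 CPM, and Ddit4, an inhibitor of the growth kinase mTORC1, 117 ± 0.645 and 16.03 ± 2.37 CPM. Asns, which makes asparagine, averaged 3.78 ± 1.05 CPM in cKO LPS cells and 14.2 ± 4.36 CPM in WT LPS cells. Over the tested genes, 7 were higher and 17 lower of 39 (edgeR quasi-likelihood test, Benjamini-Hochberg adjusted over all 11876 genes, called at an adjusted p under 0.05), against 16% and 19.3% of all genes, so the share higher was close to that of all genes. On the TPM scale, log2(TPM + 1) tested with limma, the split was 2 higher and 22 lower. That fit called 6148 of all 11876 genes, against 4194 in the main fit, and the median of all genes was -0.31. The median log2 fold change was -0.23 over the 39 genes and -0.05 over all genes. Without replicate 1 of both cKO groups 6 were higher and 16 lower. The higher genes were Atf4, Nupr1, Ppp1r15a, Ddit4, Eif4ebp1, Slc7a11 and Slc3a2. Of the cell markers, 0 of 14 tested granulocyte precursor markers were called between these groups. Of 6 macrophage markers 1 was higher and 2 lower, and of 9 dendritic cell markers 0 were higher and 1 lower in cKO LPS cells, and their part in the result was not tested.

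In medium fewer of the genes differed between the genotypes. Ddit4 averaged 3.79 ± 0.366 CPM in cKO medium cells and 0.538 ± 0.215 CPM in WT medium cells, Ppp1r15a 95.7 ± 12.9 and 41.1 ± 9.02 CPM, and Asns 35.2 ± 6.41 and 21.7 ± 5.42 CPM. In all 8 genes were higher and 2 lower of 39, against 15.8% and 14.4% of all genes, so the share lower was under the background. The split was 8 and 4 with upper-quartile scaling and 8 and 5 on the TPM scale. Over all genes these fits called 3614 and 3643, against 3583 in the main fit. Without WT medium replicate 3 the count fell to 6 (5 higher, 1 lower). That library had the lowest dendritic cell marker sum of its group (4099 CPM), and the part of this was not tested. Without replicate 1 of both cKO groups 6 were higher and 3 lower. Over all genes these fits called 2681 and 2442, against 3583 in the main fit. The higher genes were Eif2ak3, Nupr1, Ppp1r15a, Ddit4, Eif4ebp1, Asns, Pck2 and Cars, and the lower ones Slc7a1 and Yars. Beside this, 12 of 14 tested granulocyte precursor markers were higher in cKO medium cells and 0 lower. Of 6 macrophage markers 1 was higher and 2 lower, of 9 dendritic cell markers 0 were higher and 1 lower, and of 4 mast cell markers 1 was higher and 0 lower. Their part in the result was not tested.

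**Figure D2:**
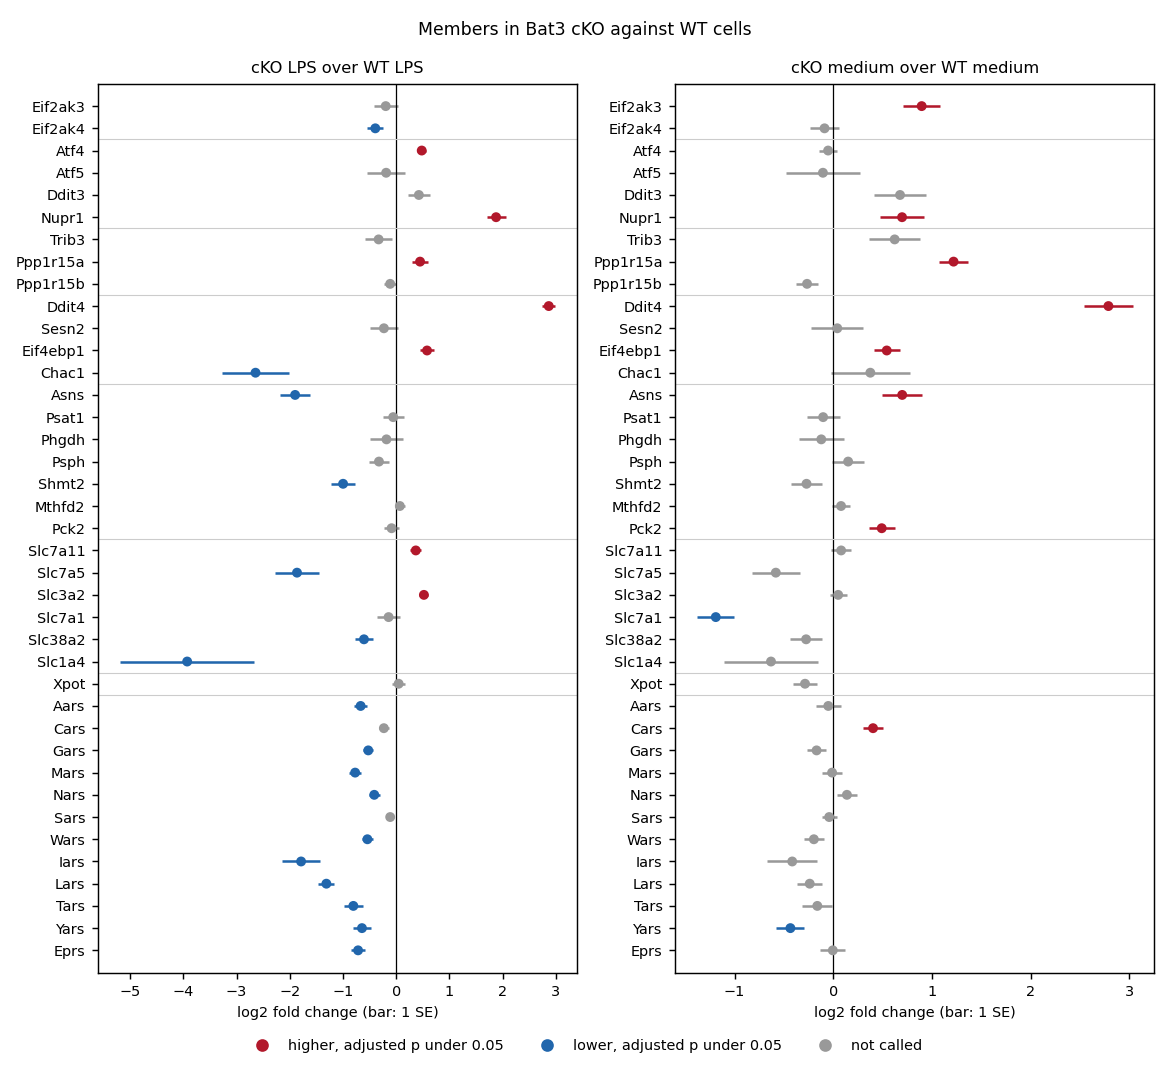
Log2 fold change with 1 SE (points and bars) of 39 genes in cKO over WT cells, under LPS (left) and in medium (right), coloured by call. Under LPS all 12 synthetases lie left of 0, 10 of them called, while Ddit4 and Nupr1 lie far right.

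LPS itself moved most of the genes in both genotypes, as it did most of all tested genes. In WT LPS against WT medium cells 15 were higher (38.5%) and 16 lower (41.0%) of 39, against 29.8% and 28.9% of all genes. On the TPM scale 12 were higher and 20 lower. In cKO LPS against cKO medium cells 10 were higher (25.6%, under the 29.3% of all genes) and 20 lower (51.3%, against 34.8%). On the TPM scale this was 8 and 26, and without replicate 1 of both cKO groups also 10 and 20. Over all genes the TPM scale gave 7170 calls with LPS in WT cells and 8797 in cKO cells, against 6969 and 7614 in the main fit. The medians of all genes on that scale were -0.19 and -0.47. Atf4, Ddit3, Nupr1 and all 3 feedback genes rose with LPS in WT cells, and the fourth factor, Atf5, was called higher in a minority of the alternatives. Only 2 of the 4 factors were called on the TPM scale. At the same time 5 of 7 tested synthesis enzymes and 8 of 12 synthetases fell. Cell markers moved with LPS as well. In WT cells 4 of 6 macrophage markers were higher and 2 lower, 3 of 14 granulocyte precursor markers were higher and 0 lower, and 1 of 9 dendritic cell markers was higher and 2 lower. In cKO cells 4 of 6 macrophage markers were higher and 2 lower, 1 of 14 granulocyte precursor markers was higher and 9 lower (median log2 fold change -1.26), and 2 of 9 dendritic cell markers were higher and 2 lower. Their part in the result was not tested. The response differed between the genotypes (interaction, cKO response minus WT response) in 16 genes, 4 higher and 12 lower in cKO, against 7.33% and 10.1% of all genes. With RLE scaling this was 4 and 10, on the TPM scale 3 and 18. Over all genes the TPM scale gave 3309 called interactions, against 2070 in the main fit, with a median of -0.25. Without replicate 1 of both cKO groups it was 10 genes, 3 higher and 7 lower, while calls over all genes fell from 2070 to 1268.

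**Figure D3:**
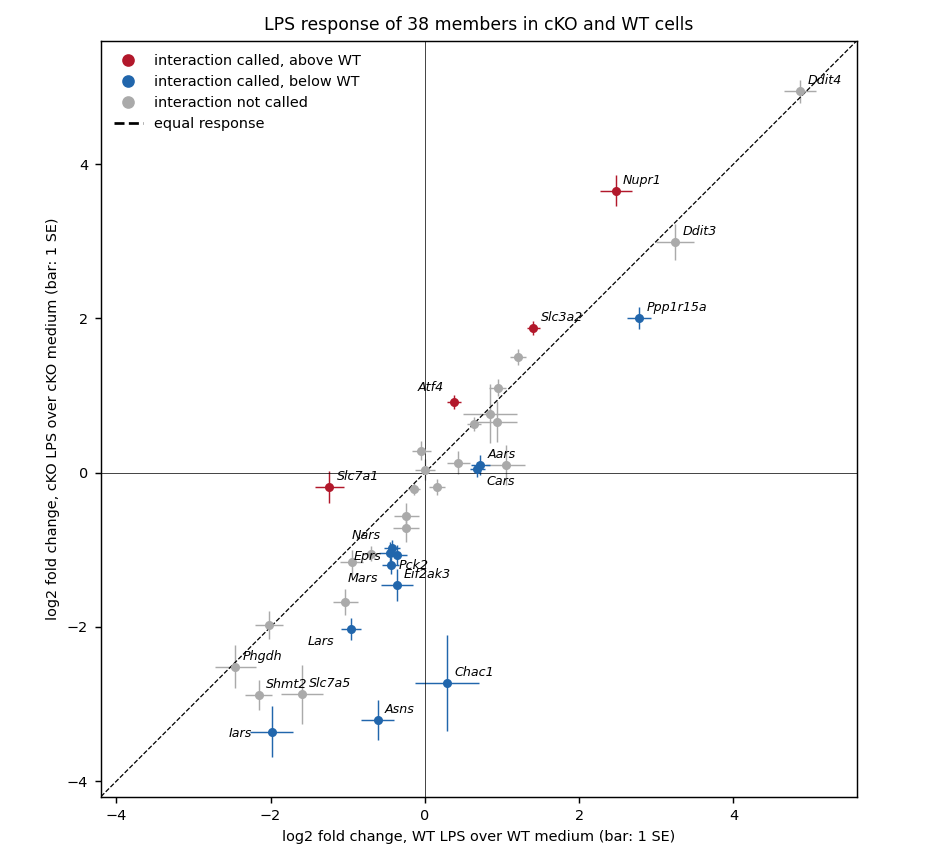
Log2 fold change with LPS in cKO cells (vertical axis) against WT cells (horizontal axis), bars 1 SE, for 38 genes (Slc1a4, at 1 count in the cKO LPS group, is not drawn). Points off the dashed line of equal response and coloured are the called interactions: Nupr1, Slc3a2, Atf4 and Slc7a1 lie above it, and 12 genes including Asns, Chac1 and Iars below it.

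In WT cells the cytokines alone raised all 4 transcription factors and all 3 feedback genes, with 3 of the 4 factors called with upper-quartile scaling or on the TPM scale. Most amino acid genes were left uncalled. Of 7 tested synthesis enzymes 0 were higher and 3 lower, of 6 transporters 2 and 0, and of 12 synthetases 1 and 0. Against WT medium cells 12 of 39 were higher and 3 lower, against 18.3% and 16.9% of all genes. That split was 9 and 7 with upper-quartile scaling and on the TPM scale. Over all genes these fits called 4314 and 4472, against 4175 in the main fit, with medians of -0.07 and -0.12. Without WT cytokine replicate 2 the count was 9 (8 higher, 1 lower), and with the replicate number as a block 17 (12 higher, 5 lower). Calls over all genes were 3292 and 4276 in these fits. Added to LPS, the cytokines gave 8 higher and 8 lower, 20.5% each, close to the 19.1% and 21.1% of all genes. LPS added to the cytokines gave 10 higher (25.6%, close to the 23.9% of all genes) and 18 lower (46.2%, against 23.1%). The LPS response with cytokines differed from that without them in 12 genes (2 higher, 10 lower), against 8.88% and 12.1% of all genes, and with upper-quartile scaling in 4 and 9. These cytokine groups also differed in cell markers: 9 of 9 tested dendritic cell markers were lower and 14 of 14 granulocyte precursor markers higher in WT cytokine than in WT medium cells. Of 6 macrophage markers 4 were higher and 0 lower, and of 4 tested mast cell markers 3 were higher and 1 lower. In WT LPS-plus-cytokine against WT LPS cells 8 of 9 dendritic cell markers were lower and 10 of 14 granulocyte precursor markers, 4 of 6 macrophage markers and 3 of 4 mast cell markers higher. Their part in the result was not tested.

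**Figure D4:**
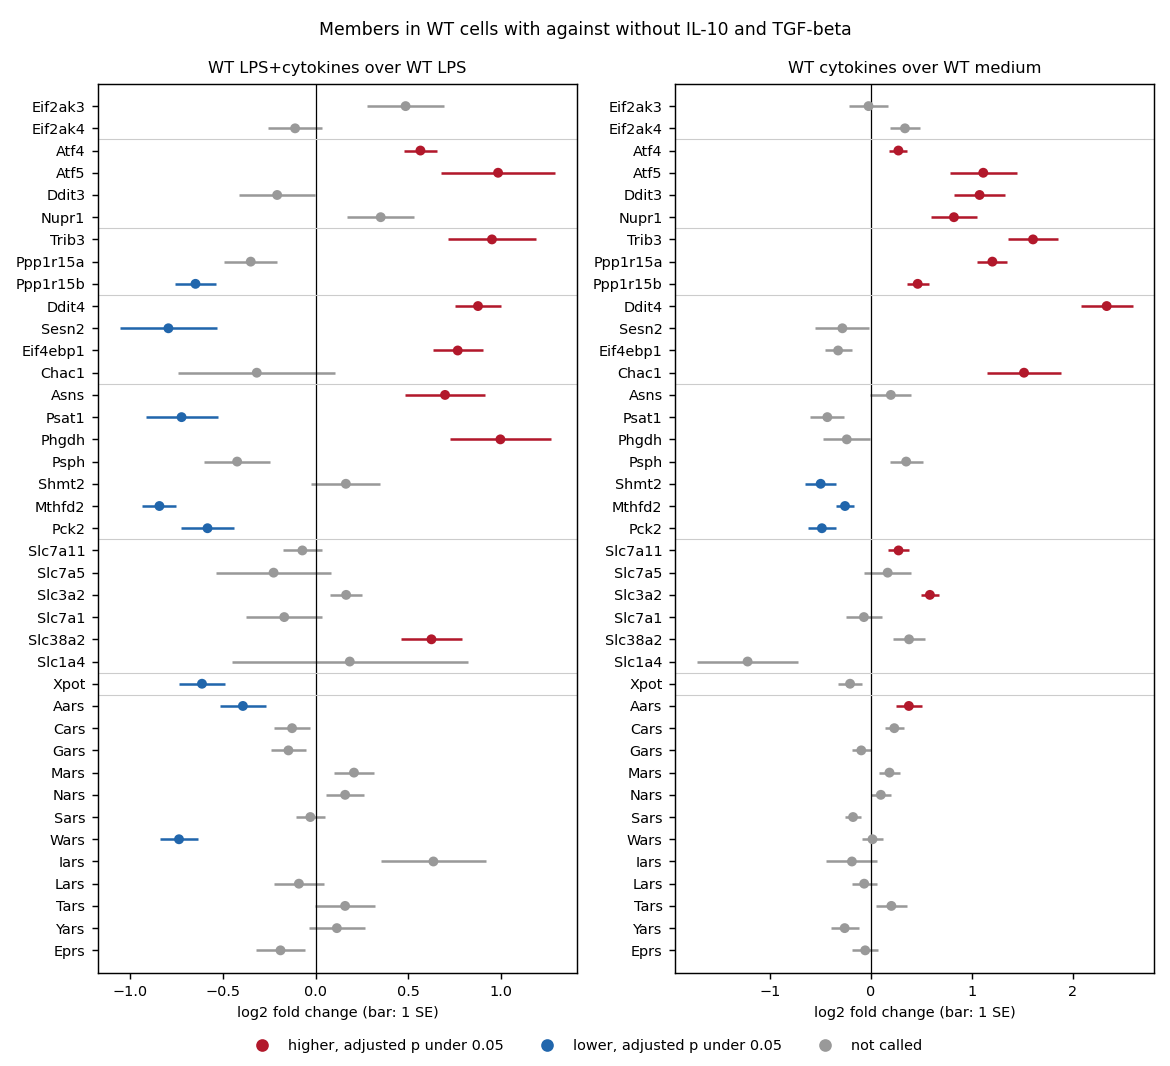
Log2 fold change with 1 SE of 39 genes in WT cells with over without IL-10 and TGF-beta, under LPS (left) and in medium (right), coloured by call. In medium the transcription factors and feedback genes lie right of 0, while 1 synthetase, Aars, is called, a call lost with upper-quartile scaling and on the TPM scale.

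The sensor kinases come first in the pathway. Eif2ak3, the PERK kinase of the endoplasmic reticulum membrane, had 5.09, 4.21 and 4.46 CPM in cKO LPS cells and 9.98, 13.7 and 14.3 CPM in cKO medium cells. WT cells had 6.45, 8.29 and 7.44 CPM with LPS and cytokines, 4.95, 7.27 and 7.73 CPM with cytokines alone, 4.25, 5.72 and 5.85 CPM with LPS alone and 6.28, 6.95 and 7.15 CPM in medium of Eif2ak3. In medium every cKO medium library lay above every WT medium library (log2 fold change 0.90 ± 0.19 SE, adjusted p = 0.00132), and under LPS cKO LPS and WT LPS libraries overlapped (-0.20 ± 0.23, not called). Eif2ak3 fell with LPS in cKO cells (-1.46 ± 0.21) and had -0.37 ± 0.21 in WT cells, not called, and the responses differed (log2 fold change -1.09 ± 0.30 SE, adjusted p = 0.0149). Eif2ak4, the GCN2 kinase that senses uncharged tRNA, ranged from 14.6 to 28.0 CPM over all libraries. It fell in cKO LPS against WT LPS cells (-0.39 ± 0.15), a call lost without replicate 1, 2 or 3 of cKO LPS or replicate 1 or 2 of WT LPS, with RLE scaling, with DESeq2, with no count filter, with the replicate block, without both first cKO replicates, or without Rn45s (log2 fold change -0.30 to -0.42). With LPS in WT cells it rose (0.43 ± 0.15), a call lost without replicate 1 of WT LPS or replicate 2 of WT medium, with upper-quartile scaling, or on the TPM scale (log2 fold change 0.17 to 0.36).

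Among the transcription factors, Atf4 had 252, 244 and 252 CPM in cKO LPS cells and 130.5, 138 and 129 CPM in cKO medium cells. WT cells had 275, 268 and 252 CPM with LPS and cytokines, 167, 168 and 163 CPM with cytokines alone, 203, 156 and 178 CPM with LPS alone and 132, 133 and 147 CPM in medium of Atf4. For Atf4 every cKO LPS library lay above every WT LPS library (log2 fold change 0.48 ± 0.09 SE, adjusted p = 0.000353), and in medium cKO medium and WT medium libraries overlapped (-0.05 ± 0.09, not called). Atf4 rose with LPS, with log2 fold changes of 0.91 ± 0.09 in cKO cells and of 0.38 ± 0.09 in WT cells, and the difference passed (log2 fold change 0.53 ± 0.13 SE, adjusted p = 0.00664). The cytokines raised it too, by a log2 fold change of 0.57 ± 0.09 under LPS and by 0.27 ± 0.09 in medium. The call under LPS between genotypes was lost on the TPM scale (log2 fold change 0.13), that of the interaction on the TPM scale (log2 fold change 0.26), that of LPS in WT cells on the TPM scale (log2 fold change 0.12) and that of the cytokines alone without replicate 1 or 2 of WT cytokine or replicate 1 or 2 of WT medium, with upper-quartile scaling, with no count filter, or on the TPM scale (log2 fold change 0.13 to 0.27). On the TPM scale the median of all genes was -0.31 in cKO LPS against WT LPS cells and -0.12 for the cytokines alone. It was -0.19 for LPS in WT cells, -0.47 for LPS in cKO cells and -0.25 for their interaction. For LPS added to the cytokines it was -0.11, and for the cytokine interaction 0.10. The part of these shifts in the lost calls was not tested. Some results that were not called passed as lower on the TPM scale. In cKO LPS against WT LPS cells these were Pck2 (log2 fold change -0.41), Ppp1r15b (-0.46), Psph (-0.61) and Sars (-0.46). With LPS in WT cells they were Eif2ak3 (log2 fold change -0.44) and Psph (-0.44). With LPS in cKO cells they were Aars (log2 fold change -0.40), Cars (-0.48), Eif4ebp1 (-0.49) and Slc7a1 (-0.47).

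Ddit3 encodes CHOP, the factor ATF4 induces under lasting stress. It had 62.9, 62.7 and 60.8 CPM in cKO LPS cells and 8.98, 7.41 and 6.98 CPM in cKO medium cells. WT cells had 42.7, 39.7 and 37.7 CPM with LPS and cytokines, 12.3, 13.2 and 5.51 CPM with cytokines alone, 42.1, 51.8 and 44.9 CPM with LPS alone and 4.42, 6.69 and 3.53 CPM in medium of Ddit3. All LPS libraries lay above all libraries without LPS, in either genotype and with or without the cytokines. Ddit3 rose with LPS, with log2 fold changes of 2.99 ± 0.23 in cKO cells and of 3.24 ± 0.24 in WT cells (adjusted p = 2.05e-09). Neither genotype comparison was called (log2 fold change 0.43 ± 0.20 under LPS, 0.68 ± 0.27 in medium), although under LPS every cKO LPS library lay above every WT LPS library. Ddit3 was called higher in cKO LPS cells with no count filter or when only the groups compared were fitted (log2 fold change 0.43 to 0.45). In medium it was called higher without replicate 2 of WT medium, with DESeq2, with no count filter, or with the replicate block (log2 fold change 0.65 to 0.97). The cytokines alone raised it (1.08 ± 0.26), a call lost when only the groups compared were fitted (log2 fold change 1.06), and its rise with LPS was smaller with the cytokines than without (log2 fold change -1.28 ± 0.33 SE, adjusted p = 0.00868). Ddit3 shares 71 bases with Mars and 77 with Mbd6, and without strand those reads cannot be told apart.

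Nupr1, a small stress-induced chromatin protein, had 96.5, 102 and 109 CPM in cKO LPS cells and 8.71, 5.68 and 9.96 CPM in cKO medium cells. WT cells had 36.5, 32.5 and 37.9 CPM with LPS and cytokines, 9.70, 9.90 and 7.07 CPM with cytokines alone, 18.9, 34.5 and 30.3 CPM with LPS alone and 5.43, 4.72 and 4.88 CPM in medium of Nupr1. For Nupr1 every cKO LPS library lay above every WT LPS library (log2 fold change 1.88 ± 0.18 SE, adjusted p = 5.55e-07), and in medium every cKO medium library lay above every WT medium library (0.70 ± 0.23). Nupr1 rose with LPS, with log2 fold changes of 3.65 ± 0.20 in cKO cells and of 2.47 ± 0.21 in WT cells, and the difference passed (log2 fold change 1.18 ± 0.29 SE, adjusted p = 0.00897). The cytokines alone raised it by a log2 fold change of 0.82 ± 0.22. Its call in medium between genotypes was lost without replicate 1 or 3 of cKO medium or replicate 2 or 3 of WT medium, when only the groups compared were fitted, or without both first cKO replicates (log2 fold change 0.52 to 0.70). Nupr1 shares 2225 bases, its whole annotated span, with Gm39087, a long noncoding RNA gene, and without strand those reads cannot be told apart. Atf5, a related factor under similar translational control, ranged from 0.764 to 4.21 CPM and was highest in WT cells given LPS and cytokines (4.21, 4.05 and 3.62 CPM). With LPS in WT cells it was called higher (log2 fold change 0.85 ± 0.35 SE, adjusted p = 0.0436), a call lost without replicate 1, 2 or 3 of WT LPS or replicate 1 or 3 of WT medium, with upper-quartile scaling, with DESeq2, with no count filter, when only the groups compared were fitted, or on the TPM scale (log2 fold change 0.33 to 0.95). The cytokines raised it by 0.98 ± 0.31 under LPS, a call lost without replicate 3 of WT LPS (log2 fold change 0.90), and by 1.11 ± 0.33 in medium, a call lost without replicate 2 of WT cytokine or replicate 1 of WT medium (log2 fold change 0.84 to 0.91). Parts of Atf5 overlap Nup62 and Il4i1b.

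The feedback genes restrain the response. Ppp1r15a, or GADD34, brings a phosphatase to eIF2 and is itself stress-induced. It had 431, 378 and 344 CPM in cKO LPS cells and 111, 87.1 and 89.6 CPM in cKO medium cells. WT cells had 239, 222 and 202 CPM with LPS and cytokines, 102, 101 and 80.4 CPM with cytokines alone, 295, 246 and 304 CPM with LPS alone and 48.7, 43.6 and 31.1 CPM in medium of Ppp1r15a. For Ppp1r15a every cKO LPS library lay above every WT LPS library (0.45 ± 0.14), and in medium every cKO medium library lay above every WT medium library (log2 fold change 1.22 ± 0.15 SE, adjusted p = 9.55e-06). The call under LPS was lost without replicate 1 of cKO LPS or replicate 2 of WT LPS, on the TPM scale, or without both first cKO replicates (log2 fold change 0.09 to 0.38). Ppp1r15a rose with LPS, with log2 fold changes of 2.005 ± 0.15 in cKO cells and of 2.78 ± 0.15 in WT cells, a smaller rise in cKO (log2 fold change -0.77 ± 0.20 SE, adjusted p = 0.014), whose call was lost without replicate 3 of cKO LPS (log2 fold change -0.66). The cytokines alone raised it by 1.20 ± 0.15, and the LPS response was smaller with them (log2 fold change -1.55 ± 0.21 SE, adjusted p = 1.39e-05). It shares 730 bases with Tulp2.

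Ppp1r15b, or CReP, is the constitutive partner of the same phosphatase. It had 166, 185 and 171 CPM in cKO LPS cells and 69.7, 99.8 and 74.4 CPM in cKO medium cells. WT cells had 127, 125 and 108 CPM with LPS and cytokines, 138, 133 and 133 CPM with cytokines alone, 181, 202 and 182 CPM with LPS alone and 96.4, 94.8 and 102 CPM in medium of Ppp1r15b. Every LPS library without cytokines lay above every medium library, and cKO LPS and WT LPS libraries overlapped (log2 fold change -0.11 ± 0.11, not called). Ppp1r15b rose with LPS, with log2 fold changes of 1.10 ± 0.11 in cKO cells and of 0.95 ± 0.11 in WT cells. With the cytokines it fell under LPS (-0.65 ± 0.11) and rose in medium (0.46 ± 0.11), and the interaction passed (log2 fold change -1.11 ± 0.15 SE, adjusted p = 1.76e-05).

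Trib3, a pseudokinase that binds ATF4 and dampens it, had 14.4, 14.7 and 14 CPM in cKO LPS cells and 14.4, 15.3 and 10.6 CPM in cKO medium cells. WT cells had 32.2, 32.3 and 40.4 CPM with LPS and cytokines, 25.3, 30.4 and 24.1 CPM with cytokines alone, 25.1, 10.3 and 18.8 CPM with LPS alone and 9.60, 10.7 and 5.89 CPM in medium of Trib3. The WT LPS libraries were spread more than 2-fold, and cKO LPS and WT LPS libraries overlapped (log2 fold change -0.33 ± 0.26, not called). In medium cKO medium and WT medium libraries overlapped (log2 fold change 0.62 ± 0.26, not called). Trib3 rose with LPS in WT cells (log2 fold change 1.05 ± 0.25) and had 0.10 ± 0.26 in cKO cells, not called, and the interaction was not called either (-0.95 ± 0.36). That interaction passed without replicate 2 of WT LPS, with no count filter, or on the TPM scale (log2 fold change -0.93 to -1.23). The comparison in medium passed without replicate 3 of cKO medium or replicate 2 of WT medium or with no count filter (log2 fold change 0.60 to 0.79), and that under LPS without replicate 2 of WT LPS (log2 fold change -0.61). The cytokines raised it by a log2 fold change of 0.95 ± 0.24 under LPS and by 1.61 ± 0.25 in medium (adjusted p = 4.84e-05).

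The growth effectors couple stress to mTORC1 and translation. Ddit4, or REDD1, had 116, 117 and 117 CPM in cKO LPS cells and 4.17, 3.75 and 3.45 CPM in cKO medium cells. WT cells had 29.3, 31.7 and 27.3 CPM with LPS and cytokines, 2.52, 3.04 and 2.71 CPM with cytokines alone, 17.6, 13.3 and 17.2 CPM with LPS alone and 0.764, 0.515 and 0.336 CPM in medium of Ddit4. The genotypes did not overlap under either treatment: every cKO LPS library lay above every WT LPS library (log2 fold change 2.87 ± 0.13 SE, adjusted p = 1.88e-12) and every cKO medium library lay above every WT medium library (log2 fold change 2.79 ± 0.25 SE, adjusted p = 1.66e-07). Ddit4 rose with LPS, with log2 fold changes of 4.94 ± 0.15 in cKO cells and of 4.87 ± 0.20 in WT cells, with an interaction of 0.08, not called. The WT medium libraries held few reads of it, from 4 to 9 counts each. The cytokines raised it by 0.88 ± 0.12 under LPS and by 2.34 ± 0.26 in medium, and the LPS response was smaller with them (log2 fold change -1.46 ± 0.29 SE, adjusted p = 0.00108), a call lost on log2(TPM + 1) (log2 fold change -0.45).

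Eif4ebp1 encodes 4E-BP1, which blocks cap-dependent translation when mTORC1 is low. It had 310.3, 277 and 302 CPM in cKO LPS cells and 314, 259 and 295 CPM in cKO medium cells. WT cells had 348, 334 and 331 CPM with LPS and cytokines, 167, 174 and 134 CPM with cytokines alone, 232, 146 and 217 CPM with LPS alone and 205, 212 and 178 CPM in medium of Eif4ebp1. For Eif4ebp1 every cKO LPS library lay above every WT LPS library (log2 fold change 0.58 ± 0.13), and in medium every cKO medium library lay above every WT medium library (0.54 ± 0.13). The call under LPS was lost on the TPM scale (log2 fold change 0.25). LPS alone left it uncalled (log2 fold change 0.04 ± 0.13 in cKO, -0.00 ± 0.13 in WT cells), but in cKO cells it was called lower on the TPM scale (-0.49). LPS raised it by 1.09 ± 0.14 in the presence of the cytokines (log2 fold change 1.09 ± 0.19 SE, adjusted p = 0.000257 for the interaction). Sesn2, a leucine sensor that restrains mTORC1, had 48.8, 37.7 and 39.7 CPM in cKO LPS cells and 26.95, 36.6 and 16.5 CPM in cKO medium cells. WT cells had 29.4, 30.5 and 25.5 CPM with LPS and cytokines, 22.2, 22.7 and 18.99 CPM with cytokines alone, 60.2, 35.4 and 52.6 CPM with LPS alone and 32.5, 28.2 and 16.99 CPM in medium of Sesn2. Neither genotype comparison of Sesn2 was called (log2 fold change -0.23 ± 0.26 under LPS, 0.04 ± 0.27 in medium), and in both the libraries overlapped. It rose with LPS in WT cells (0.93 ± 0.26) and in cKO cells (0.66 ± 0.27), the cKO call being lost without replicate 1 or 3 of cKO LPS or replicate 1 or 3 of cKO medium, with upper-quartile scaling, on the TPM scale, or without both first cKO replicates (log2 fold change 0.18 to 0.73). Under LPS the cytokines lowered it (-0.79 ± 0.26), a call lost without replicate 1 or 3 of WT LPS or replicate 1 or 3 of WT LPS-plus-cytokine (log2 fold change -0.63 to -0.82).

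Chac1, an enzyme that degrades glutathione, was low throughout. It had 0.283, 0.312 and 0 CPM in cKO LPS cells and 1.63, 1.64 and 0.931 CPM in cKO medium cells. WT cells had 0.717, 1.16 and 1.31 CPM with LPS and cytokines, 3.40, 3.30 and 2.63 CPM with cytokines alone, 1.90, 0.817 and 1.21 CPM with LPS alone and 1.36, 1.03 and 0.841 CPM in medium of Chac1. For Chac1 every cKO LPS library lay below every WT LPS library (log2 fold change -2.64 ± 0.64 SE, adjusted p = 0.00307), and in medium cKO medium and WT medium libraries overlapped (0.38 ± 0.40, not called). The 3 cKO LPS libraries held 4 counts, against 35 in the WT LPS libraries, a ratio of 0.126 after scaling to library totals (95% exact binomial interval 0.0326 to 0.353, counting error only). With LPS it fell in cKO cells (-2.73 ± 0.62) and was not called in WT cells (0.29 ± 0.42), and the responses differed (log2 fold change -3.02 ± 0.76 SE, adjusted p = 0.0101). The cytokines alone raised it (log2 fold change 1.52 ± 0.37 SE, adjusted p = 0.0026), with every WT cytokine library above every WT medium library, and the LPS response was lower with them than without (log2 fold change -1.83 ± 0.56 SE, adjusted p = 0.024).

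**Figure D5:**
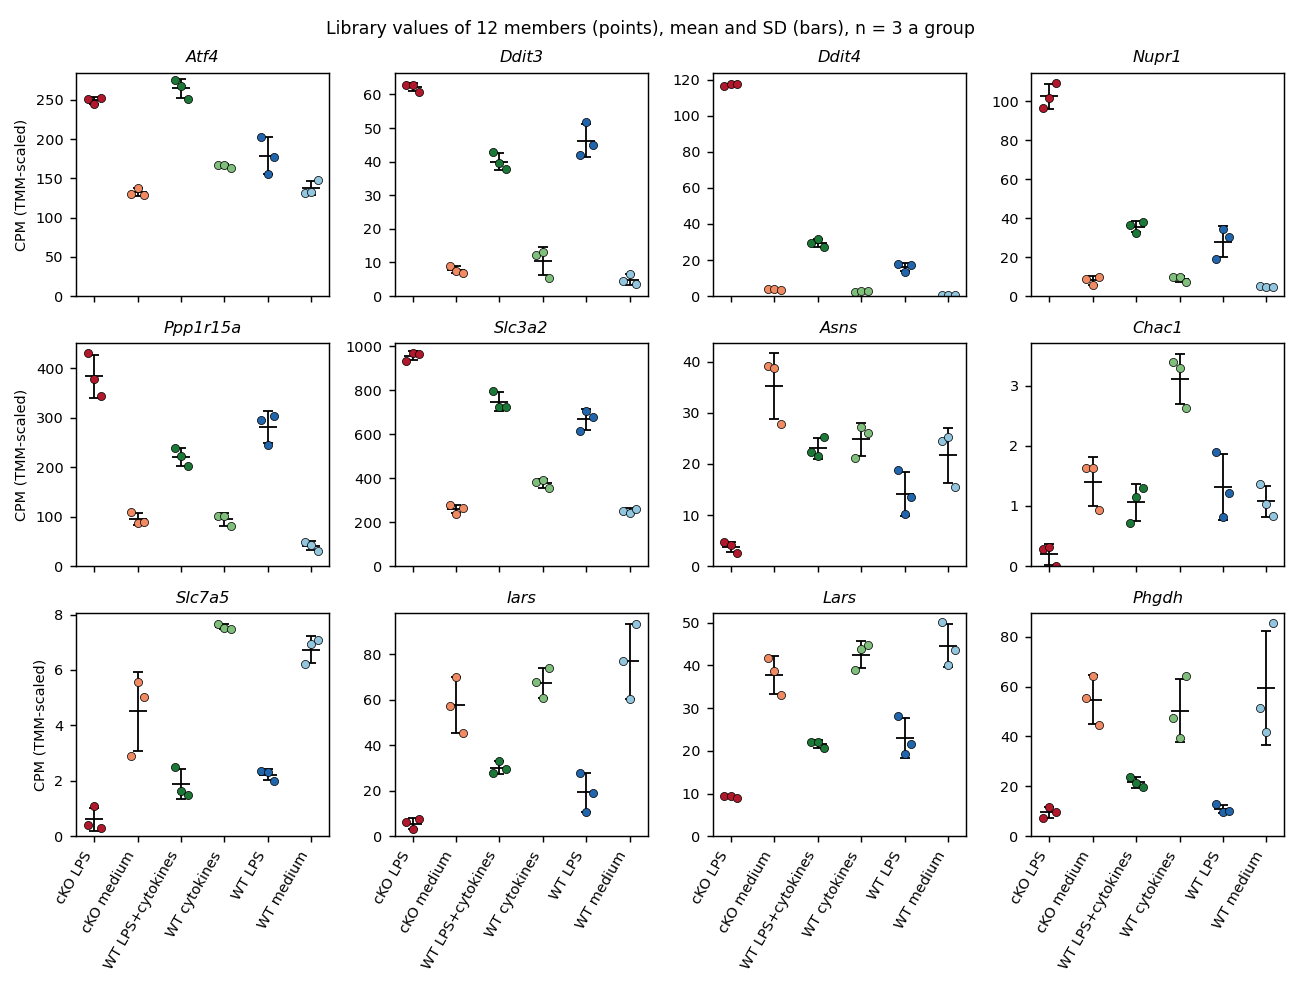
CPM of 12 genes in each library (points) with the group mean and SD (bars, n = 3), groups ordered cKO LPS, cKO medium, WT LPS with cytokines, WT cytokines, WT LPS and WT medium. For Atf4, Nupr1, Ddit4 and Slc3a2 all cKO LPS points lie above all WT LPS points. For Asns, Chac1, Slc7a5, Iars and Lars they lie below.

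Among the enzymes of amino acid synthesis, Asns had 4.67, 4.05 and 2.61 CPM in cKO LPS cells and 39.1, 38.8 and 27.8 CPM in cKO medium cells. WT cells had 22.3, 21.5 and 25.3 CPM with LPS and cytokines, 21.2, 27.3 and 25.98 CPM with cytokines alone, 18.8, 10.2 and 13.6 CPM with LPS alone and 24.5, 25.2 and 15.5 CPM in medium of Asns. The genotypes were ordered one way in medium and the other way under LPS: every cKO medium library lay above every WT medium library in medium (log2 fold change 0.70 ± 0.20 SE, adjusted p = 0.0139), and every cKO LPS library lay below every WT LPS library with LPS (log2 fold change -1.90 ± 0.28 SE, adjusted p = 4.42e-05). Asns fell with LPS, with log2 fold changes of -3.21 ± 0.26 in cKO cells and of -0.61 ± 0.22 in WT cells, and the difference passed (log2 fold change -2.60 ± 0.34 SE, adjusted p = 0.000109). Under LPS the cytokines raised it (log2 fold change 0.70 ± 0.22). Its call in medium between genotypes was lost without replicate 1 of cKO medium or replicate 3 of WT medium, on log2(TPM + 0.1), or without both first cKO replicates (log2 fold change 0.50 to 0.63). The fall with LPS in WT cells was lost without replicate 2 or 3 of WT LPS or replicate 1 or 2 of WT medium or when only the groups compared were fitted (log2 fold change -0.43 to -0.63), and the rise with cytokines under LPS without replicate 2 of WT LPS or replicate 3 of WT LPS-plus-cytokine (log2 fold change 0.51 to 0.63).

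Phgdh, Psat1 and Psph make serine from a glycolytic intermediate. Phgdh had 7.21, 11.7 and 9.84 CPM in cKO LPS cells and 55.4, 64.3 and 44.5 CPM in cKO medium cells. WT cells had 23.7, 21.5 and 19.6 CPM with LPS and cytokines, 47.3, 39.5 and 64.3 CPM with cytokines alone, 12.8, 9.68 and 10.04 CPM with LPS alone and 51.5, 41.7 and 85.4 CPM in medium of Phgdh. The genotypes overlapped under each treatment, and in both every LPS library lay below every medium library. Phgdh fell with LPS in cKO cells (log2 fold change -2.52 ± 0.28) and in WT cells (-2.46 ± 0.26), and the genotypes were not called apart (-0.18 ± 0.31 under LPS, -0.12 ± 0.23 in medium, -0.06 ± 0.38 for the interaction). Under LPS the cytokines raised it (log2 fold change 0.997 ± 0.27 SE, adjusted p = 0.00776), and its fall with LPS was smaller with them (log2 fold change 1.24 ± 0.36 SE, adjusted p = 0.0212), a call lost without replicate 2 or 3 of WT LPS, replicate 1 of WT LPS-plus-cytokine or replicate 2 of WT cytokine (log2 fold change 1.11 to 1.19). Psat1 had 19.5, 21.5 and 28.5 CPM in cKO LPS cells and 88.1, 100.1 and 84.8 CPM in cKO medium cells. WT cells had 14.2, 15.8 and 13.7 CPM with LPS and cytokines, 68.6, 55.9 and 92.6 CPM with cytokines alone, 27.7, 24.3 and 20.2 CPM with LPS alone and 90.4, 83.5 and 119 CPM in medium of Psat1. For Psat1 every WT LPS library lay below every WT medium library, and every cKO LPS library lay below every cKO medium library. Psat1 fell with LPS too (log2 fold change -1.98 ± 0.19 in cKO, -2.02 ± 0.18 in WT cells), with no genotype call (-0.06 ± 0.19 under LPS, -0.10 ± 0.17 in medium), but the cytokines lowered it further under LPS (-0.72 ± 0.19).

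Psph had 6.08, 6.55 and 8.31 CPM in cKO LPS cells and 11.98, 9.91 and 12.6 CPM in cKO medium cells. WT cells had 6.81, 6.26 and 6.43 CPM with LPS and cytokines, 11.7, 13.95 and 13.8 CPM with cytokines alone, 8.06, 8.52 and 9.60 CPM with LPS alone and 10.95, 8.06 and 12.03 CPM in medium of Psph. For Psph cKO LPS and WT LPS libraries overlapped (log2 fold change -0.32 ± 0.19, not called). Psph fell with LPS in cKO cells (log2 fold change -0.72 ± 0.18) and with LPS added to the cytokines (-1.02 ± 0.17). It was not called with LPS alone in WT cells (-0.25 ± 0.17). The cytokine interaction passed (-0.77 ± 0.24), and the genotype interaction was not called. Psph shares 88 bases with Cct6a. Shmt2, which feeds the mitochondrial folate cycle from serine, had 5.09, 4.68 and 4.46 CPM in cKO LPS cells and 35.6, 38.1 and 31.7 CPM in cKO medium cells. WT cells had 10.3, 11.5 and 10.2 CPM with LPS and cytokines, 26.6, 27.7 and 35.6 CPM with cytokines alone, 12.6, 6.65 and 9.16 CPM with LPS alone and 39.9, 38.2 and 48.95 CPM in medium of Shmt2. For Shmt2 every cKO LPS library lay below every WT LPS library (log2 fold change -0.998 ± 0.22 SE, adjusted p = 0.00145), and in medium every cKO medium library lay below every WT medium library (-0.27 ± 0.16, not called). Shmt2 fell with LPS, with log2 fold changes of -2.88 ± 0.20 in cKO cells and of -2.16 ± 0.17 in WT cells, with an interaction of -0.73 ± 0.27, not called. It passed without replicate 2 of WT LPS or replicate 3 of WT medium, with no count filter, or on log2(TPM + 0.1) (log2 fold change -0.70 to -0.93). Mthfd2, the next enzyme of that cycle, went the other way with LPS: it rose by 0.63 ± 0.09 in cKO cells and by 0.64 ± 0.09 in WT cells, the cKO call being lost on the TPM scale (log2 fold change 0.11). Under LPS the cytokines lowered it (log2 fold change -0.84 ± 0.09), and the interaction passed (-0.58 ± 0.13).

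Pck2 encodes the mitochondrial form of the enzyme that makes phosphoenolpyruvate. It had 29.8, 31.96 and 30.6 CPM in cKO LPS cells and 66.9, 66.1 and 56.5 CPM in cKO medium cells. WT cells had 22.04, 26.2 and 17.2 CPM with LPS and cytokines, 29.01, 32.3 and 34.8 CPM with cytokines alone, 29.2, 33.8 and 35.1 CPM with LPS alone and 48.3, 50.2 and 36.3 CPM in medium of Pck2. In medium every cKO medium library lay above every WT medium library (log2 fold change 0.49 ± 0.13 SE, adjusted p = 0.00875), a call lost without replicate 3 of WT medium (log2 fold change 0.36), and under LPS cKO LPS and WT LPS libraries overlapped (-0.09 ± 0.14, not called). Pck2 fell with LPS, with log2 fold changes of -1.04 ± 0.14 in cKO cells and of -0.46 ± 0.14 in WT cells, and the interaction (log2 fold change -0.58 ± 0.20 SE, adjusted p = 0.0474) was lost without replicate 1, 2 or 3 of cKO LPS, replicate 1 or 2 of cKO medium, replicate 2 or 3 of WT LPS or replicate 3 of WT medium, with RLE scaling, with DESeq2, when only the groups compared were fitted, without both first cKO replicates, or without Rn45s (log2 fold change -0.44 to -0.57). The cytokines lowered it with log2 fold changes of -0.58 ± 0.14 under LPS and of -0.49 ± 0.14 in medium.

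The transporters split by genotype under LPS. Slc3a2, the 4F2 heavy chain that carries several amino acid exchangers to the membrane, had 934, 969 and 966 CPM in cKO LPS cells and 278, 239 and 264 CPM in cKO medium cells. WT cells had 797, 724 and 722 CPM with LPS and cytokines, 384, 392 and 355 CPM with cytokines alone, 615, 706 and 679.7 CPM with LPS alone and 253, 240.0 and 261 CPM in medium of Slc3a2. For Slc3a2 every cKO LPS library lay above every WT LPS library (log2 fold change 0.52 ± 0.09 SE, adjusted p = 0.000108), and in medium cKO medium and WT medium libraries overlapped (0.05 ± 0.09, not called). Slc3a2 rose with LPS, with log2 fold changes of 1.88 ± 0.09 in cKO cells and of 1.41 ± 0.09 in WT cells (log2 fold change 0.47 ± 0.12 SE, adjusted p = 0.0111 for the difference). Both the call under LPS and that of the interaction were lost on the TPM scale (log2 fold change 0.16 and 0.20). The cytokines alone raised it by a log2 fold change of 0.58 ± 0.09, and the LPS response was smaller with them (-0.42 ± 0.12).

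Slc7a11, the cystine importer that pairs with Slc3a2, had 463, 433 and 455 CPM in cKO LPS cells and 178, 156 and 144 CPM in cKO medium cells. WT cells had 366, 330.4 and 299 CPM with LPS and cytokines, 186, 202 and 159 CPM with cytokines alone, 330.4, 359 and 357 CPM with LPS alone and 159.6, 156 and 136 CPM in medium of Slc7a11. For Slc7a11 every cKO LPS library lay above every WT LPS library (0.37 ± 0.10), a call lost on the TPM scale (log2 fold change 0.01), and in medium cKO medium and WT medium libraries overlapped (0.08 ± 0.10, not called). Slc7a11 rose with LPS, with log2 fold changes of 1.499 ± 0.11 in cKO cells and of 1.21 ± 0.11 in WT cells. Slc7a5, the LAT1 importer of large neutral amino acids that pairs with the same heavy chain, had 0.424, 1.09 and 0.308 CPM in cKO LPS cells and 2.90, 5.58 and 5.03 CPM in cKO medium cells. WT cells had 2.51, 1.64 and 1.51 CPM with LPS and cytokines, 7.66, 7.53 and 7.48 CPM with cytokines alone, 2.35, 2.33 and 1.99 CPM with LPS alone and 6.20, 6.95 and 7.07 CPM in medium of Slc7a5. Slc7a5 differed in the other direction from Slc3a2: under LPS every cKO LPS library lay below every WT LPS library (log2 fold change -1.86 ± 0.42 SE, adjusted p = 0.00185). The 3 cKO LPS libraries held 12 counts of Slc7a5, 2 to 7 each, against 59 in the WT LPS libraries, which limits these values. Slc7a5 fell with LPS, with log2 fold changes of -2.88 ± 0.38 in cKO cells and of -1.60 ± 0.27 in WT cells. The interaction was -1.28 ± 0.50, not called. It passed without replicate 2 of cKO LPS or replicate 1 of cKO medium or on log2(TPM + 0.1) (log2 fold change -1.20 to -1.93). In medium every cKO medium library lay below every WT medium library (log2 fold change -0.58 ± 0.24, not called). That comparison passed without replicate 2 of cKO medium or on log2(TPM + 1) (log2 fold change -0.51 to -0.77).

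Slc7a1, the main carrier of arginine and lysine, had 10.9, 10.1 and 8.92 CPM in cKO LPS cells and 9.89, 15.5 and 8.85 CPM in cKO medium cells. WT cells had 11.5, 8.48 and 9.45 CPM with LPS and cytokines, 24.2, 21.7 and 28.5 CPM with cytokines alone, 12.4, 8.28 and 12.4 CPM with LPS alone and 24.7, 24.2 and 29.2 CPM in medium of Slc7a1. In medium every cKO medium library lay below every WT medium library (log2 fold change -1.19 ± 0.19 SE, adjusted p = 0.000108), and under LPS cKO LPS and WT LPS libraries overlapped (-0.14 ± 0.21, not called). LPS lowered Slc7a1 in WT cells (-1.24 ± 0.19) and not by a called amount in cKO cells (-0.19 ± 0.21), and the responses differed (log2 fold change 1.05 ± 0.29 SE, adjusted p = 0.0155), a call lost on log2(TPM + 0.1) or without both first cKO replicates (log2 fold change 0.82 to 0.89). Slc38a2, a sodium-coupled carrier of small neutral amino acids, fell in cKO LPS (24.2, 27.4 and 22.5 CPM) against WT LPS cells (44.3, 31.3 and 37.1 CPM; -0.61 ± 0.17), a call lost without replicate 3 of cKO LPS or replicate 1 of WT LPS (log2 fold change -0.47 to -0.52). Under LPS the cytokines raised it (63.4, 54.3 and 56.1 CPM, a log2 fold change of 0.63 ± 0.16). Slc1a4, a carrier of alanine, serine and cysteine, was nearly absent from cKO LPS cells: 1 count over 3 libraries, against 70 in cKO medium and 25 in WT LPS cells. The ratio of cKO LPS to WT LPS was 0.0442 (95% exact binomial interval 0.00108 to 0.270, counting error only) and that to cKO medium 0.0162 (0.000405 to 0.0934). The call between genotypes was lost without replicate 1 or 3 of cKO LPS or replicate 1 of WT LPS, on log2(TPM + 1), or without both first cKO replicates (log2 fold change -0.43 to -3.58), values that depend on the prior count. Xpot, which exports tRNA from the nucleus, was called in neither genotype comparison and fell with the cytokines under LPS (log2 fold change -0.61 ± 0.12).

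The tRNA synthetases charge tRNA with amino acids. Iars (isoleucine) had the largest fold changes of the 12 in cKO LPS against WT LPS cells and with LPS in either genotype. It had 6.08, 3.12 and 7.54 CPM in cKO LPS cells and 57.2, 70.04 and 45.4 CPM in cKO medium cells. WT cells had 27.6, 33.2 and 29.4 CPM with LPS and cytokines, 67.8, 60.6 and 73.7 CPM with cytokines alone, 27.97, 10.8 and 19.1 CPM with LPS alone and 77.02, 60.1 and 93.2 CPM in medium of Iars. For Iars every cKO LPS library lay below every WT LPS library (log2 fold change -1.79 ± 0.35 SE, adjusted p = 0.00131), and in medium cKO medium and WT medium libraries overlapped (-0.42 ± 0.25, not called). Iars fell with LPS, with log2 fold changes of -3.36 ± 0.33 in cKO cells and of -1.99 ± 0.28 in WT cells. The interaction (log2 fold change -1.37 ± 0.44 SE, adjusted p = 0.0445) was lost without replicate 1, 2 or 3 of cKO LPS, replicate 1 or 2 of cKO medium, replicate 1 or 3 of WT LPS or replicate 1 or 2 of WT medium, with RLE scaling, when only the groups compared were fitted, with the replicate block, without both first cKO replicates, or without Rn45s (log2 fold change -1.005 to -1.59).

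Lars (leucine) had 9.34, 9.35 and 9.08 CPM in cKO LPS cells and 41.7, 38.6 and 33.1 CPM in cKO medium cells. WT cells had 22.04, 22.2 and 20.6 CPM with LPS and cytokines, 38.9, 43.9 and 44.8 CPM with cytokines alone, 28.2, 19.3 and 21.5 CPM with LPS alone and 50.1, 40.1 and 43.6 CPM in medium of Lars. For Lars every cKO LPS library lay below every WT LPS library (log2 fold change -1.31 ± 0.15 SE, adjusted p = 3.15e-06), and in medium cKO medium and WT medium libraries overlapped (-0.24 ± 0.12, not called). Lars fell with LPS, with log2 fold changes of -2.03 ± 0.15 in cKO cells and of -0.96 ± 0.13 in WT cells (log2 fold change -1.07 ± 0.20 SE, adjusted p = 0.0013 for the difference). Mars (methionine) had 26.5, 28.7 and 26.1 CPM in cKO LPS cells and 68.5, 66.9 and 51.8 CPM in cKO medium cells. WT cells had 55.99, 50.98 and 53.2 CPM with LPS and cytokines, 64.4, 69.4 and 80.4 CPM with cytokines alone, 48.8, 45.4 and 44.6 CPM with LPS alone and 62.8, 60.5 and 65.5 CPM in medium of Mars. For Mars every cKO LPS library lay below every WT LPS library under LPS (log2 fold change -0.77 ± 0.11), and the medium libraries gave -0.01 ± 0.11, not called. Its fall with LPS was -1.20 ± 0.11 in cKO cells and -0.44 ± 0.11 in WT cells (log2 fold change -0.76 ± 0.16 SE, adjusted p = 0.0026 for the difference).

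Eprs, the joint glutamate and proline enzyme, had 46.7, 44.6 and 52.3 CPM in cKO LPS cells and 119, 97.2 and 84.8 CPM in cKO medium cells. WT cells had 68.9, 70.3 and 67.7 CPM with LPS and cytokines, 85.4, 102 and 103 CPM with cytokines alone, 91.3, 62.8 and 81.7 CPM with LPS alone and 104, 91.7 and 106 CPM in medium of Eprs. For Eprs every cKO LPS library lay below every WT LPS library under LPS (log2 fold change -0.72 ± 0.13 SE, adjusted p = 0.000366), against -0.00 ± 0.13 in medium, not called. Its fall with LPS was -1.07 ± 0.13 in cKO cells and -0.36 ± 0.13 in WT cells, the WT call being lost without replicate 2 of WT LPS or replicate 1 or 3 of WT medium (log2 fold change -0.22 to -0.33). The interaction of Eprs (-0.71 ± 0.18) was lost without replicate 2 of cKO LPS or without both first cKO replicates (log2 fold change -0.55 to -0.62). Gars (glycine), the most abundant of these enzymes per length, had 65.1, 71.3 and 73.1 CPM in cKO LPS cells and 142, 150.3 and 142 CPM in cKO medium cells. WT cells had 90.04, 84.9 and 97.2 CPM with LPS and cytokines, 148, 149.5 and 159 CPM with cytokines alone, 109.9, 92.98 and 98.3 CPM with LPS alone and 164, 144 and 179.9 CPM in medium of Gars. For Gars every cKO LPS library lay below every WT LPS library under LPS (log2 fold change -0.52 ± 0.10), against -0.17 ± 0.09 in medium, not called. LPS lowered it, with log2 fold changes of -1.05 ± 0.10 in cKO cells and of -0.70 ± 0.09 in WT cells, with an interaction of -0.36 ± 0.13, not called. It passed without replicate 2 of WT LPS or replicate 3 of WT medium, with upper-quartile scaling, or on the TPM scale (log2 fold change -0.39 to -0.63).

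Tars (threonine) had 13.7, 15.7 and 21.2 CPM in cKO LPS cells and 60.3, 51.96 and 49.4 CPM in cKO medium cells. WT cells had 33.6, 29.5 and 35.7 CPM with LPS and cytokines, 65, 60.3 and 82.7 CPM with cytokines alone, 35.6, 25.9 and 26.9 CPM with LPS alone and 58, 52.4 and 70.5 CPM in medium of Tars. For Tars every cKO LPS library lay below every WT LPS library under LPS (log2 fold change -0.81 ± 0.18), against -0.16 ± 0.15 in medium, not called. Yars (tyrosine) had 17.3, 11.4 and 12.6 CPM in cKO LPS cells and 31.7, 29.9 and 30.9 CPM in cKO medium cells. WT cells had 22.3, 23.4 and 24.3 CPM with LPS and cytokines, 30.7, 33.2 and 40.4 CPM with cytokines alone, 24.5, 20.2 and 19.97 CPM with LPS alone and 37.8, 37.2 and 50.05 CPM in medium of Yars. For Yars every cKO LPS library lay below every WT LPS library, and every cKO medium library lay below every WT medium library. Yars was the synthetase that was lower in cKO cells both under LPS (-0.64 ± 0.16) and in medium (-0.43 ± 0.14), the medium call being lost without replicate 1, 2 or 3 of cKO medium or replicate 3 of WT medium or when only the groups compared were fitted (log2 fold change -0.28 to -0.46). Tars fell with LPS, with log2 fold changes of -1.68 ± 0.17 in cKO cells and of -1.03 ± 0.16 in WT cells, and Yars with -1.16 ± 0.16 and -0.95 ± 0.15.

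Of the remaining synthetases, Aars (alanine) and Cars (cysteine) rose with LPS in WT cells, by a log2 fold change of 0.72 ± 0.13 and 0.68 ± 0.10, and were not called with LPS in cKO cells (0.10 ± 0.13 and 0.04 ± 0.10). These uncalled values of Aars and Cars in cKO cells were negative with upper-quartile scaling and passed as lower on the TPM scale (-0.40 and -0.48). Their responses differed between the genotypes (log2 fold change -0.62 ± 0.18 SE, adjusted p = 0.0217 for Aars and log2 fold change -0.63 ± 0.14 SE, adjusted p = 0.00375 for Cars). The interaction of Aars was lost without replicate 2 or 3 of cKO LPS, replicate 1 of cKO medium, replicate 1 of WT LPS or replicate 2 of WT medium, when only the groups compared were fitted, or without both first cKO replicates (log2 fold change -0.48 to -0.58). Aars, which shares 3974 bases with Ddx19b, fell in cKO LPS against WT LPS cells (log2 fold change -0.67 ± 0.13) and had a called cytokine interaction (-0.77 ± 0.18). With the cytokines alone Aars rose (0.38 ± 0.13), a call lost without replicate 2 or 3 of WT cytokine or replicate 2 of WT medium, with upper-quartile scaling, or on the TPM scale (log2 fold change 0.22 to 0.36). Cars rose in cKO medium against WT medium cells (log2 fold change 0.40 ± 0.10). Nars (asparagine) fell in cKO LPS against WT LPS cells (-0.41 ± 0.10), with an interaction of -0.55 ± 0.14 that was lost without replicate 2 of cKO LPS, when only the groups compared were fitted, or without both first cKO replicates (log2 fold change -0.48 to -0.51). Wars (tryptophan) fell in cKO LPS against WT LPS cells (log2 fold change -0.54 ± 0.10) and with the cytokines under LPS (-0.74 ± 0.10), where the interaction passed (-0.75 ± 0.14). Sars (serine) was called in neither genotype comparison (log2 fold change -0.11 ± 0.08 under LPS, -0.04 ± 0.08 in medium). As a group, 10 of 12 synthetases were lower and 0 higher in cKO LPS against WT LPS cells, 11 with upper-quartile scaling or without replicate 1 of both cKO groups and 12 on the TPM scale. Their median log2 fold change was -0.66, against -0.05 over all genes. Of all genes 19.3% were lower in the main fit. On the TPM scale 6148 of all genes were called, against 4194 in the main fit, with a median of -0.31. The interaction was called in 7 of 12 synthetases, all lower, against 10.1% of all genes lower. Without replicate 1 of both cKO groups it was called in 3, while calls over all genes fell from 2070 to 1268.

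Genes of the same pathway that are not among the 42 were read from lists drawn up by function. Their counts stand against 16% higher and 19.3% lower of all genes in cKO LPS against WT LPS cells, 15.8% and 14.4% in medium, and 29.8% and 28.9% for LPS in WT cells. On the TPM scale 6148, 3643 and 7170 of all genes were called in these comparisons, against 4194, 3583 and 6969 in the main fit. Without replicate 1 of both cKO groups 3582 were called under LPS and 2442 in medium. Of 14 tested further targets of ATF4 and CHOP, 11 were higher and 0 lower in cKO LPS against WT LPS cells, with the smallest p for Gdf15 (log2 fold change 1.77 ± 0.20), Mknk2 (0.93 ± 0.10) and Vegfa (1.93 ± 0.27). In medium 9 were higher and 1 lower, with Gadd45a (log2 fold change 2.15 ± 0.24), Vegfa (2.58 ± 0.35) and Cebpb (5.11 ± 0.58). LPS in WT cells gave 7 higher and 1 lower, with Atf3 (log2 fold change 2.83 ± 0.17), Sqstm1 (1.75 ± 0.13) and Mknk2 (1.03 ± 0.11). These targets include signalling and growth factor genes that other pathways also raise, and their list is no independent evidence of a direction. The targets had, on the TPM scale, 6 higher and 2 lower in cKO LPS against WT LPS cells and 7 and 2 in medium, and without replicate 1 of both cKO groups 10 and 0 under LPS and 8 and 1 in medium.

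The other 11 cytosolic synthetase and scaffold genes were 1 higher and 4 lower in cKO LPS against WT LPS cells, with Farsb (log2 fold change -1.03 ± 0.15), Farsa (-0.74 ± 0.12) and Eef1e1 (-1.23 ± 0.26) of smallest p. In medium 0 were higher and 4 lower, with Kars (log2 fold change -0.41 ± 0.11), Hars (-0.34 ± 0.09) and Farsa (-0.40 ± 0.11). All 11 fell with LPS in WT cells, with Vars (log2 fold change -1.56 ± 0.15), Farsb (-1.23 ± 0.13) and Hars (-0.93 ± 0.10). This list had, on the TPM scale, 0 higher and 9 lower in cKO LPS against WT LPS cells, and without replicate 1 of both cKO groups 0 and 3 under each treatment. Of 19 mitochondrial synthetase genes, 2 were higher and 10 lower in cKO LPS against WT LPS cells, with Pars2 (log2 fold change -3.28 ± 0.50), Lars2 (1.11 ± 0.20) and Rars2 (-1.11 ± 0.22). In medium 5 were higher and 3 lower, with Yars2 (log2 fold change 1.60 ± 0.28), Iars2 (0.72 ± 0.17) and Mars2 (-1.004 ± 0.25). LPS in WT cells gave 1 higher and 9 lower, with Mars2 (log2 fold change -2.18 ± 0.28), Ears2 (-2.13 ± 0.33) and Cars2 (-0.90 ± 0.15). For the mitochondrial list the TPM scale gave 2 higher and 14 lower in cKO LPS against WT LPS cells and 2 and 5 in medium, which turned the balance in medium. Without replicate 1 of both cKO groups it was 2 and 6 under LPS and 3 and 1 in medium.

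Of 13 genes for eIF2, its exchange factor eIF2B and their regulators, 2 were higher and 4 lower in cKO LPS against WT LPS cells, with Gcn1l1 (log2 fold change -0.67 ± 0.14), Eif2b3 (-1.34 ± 0.33) and Eif2b1 (-0.51 ± 0.13) of smallest p. In medium 4 were higher and 2 lower, with Eif2b5 (log2 fold change 1.09 ± 0.15), Eif2b2 (0.56 ± 0.09) and Impact (-0.56 ± 0.14). LPS in WT cells gave 3 higher and 6 lower, with Eif2ak2, the interferon-induced kinase PKR (log2 fold change 1.49 ± 0.13), Impact (1.44 ± 0.14) and Eif2b1 (-0.97 ± 0.12). These 13 genes had, on the TPM scale, 0 higher and 8 lower in cKO LPS against WT LPS cells and 2 and 3 in medium, and without replicate 1 of both cKO groups 3 and 3 under LPS and 2 and 2 in medium. Of 21 further genes of amino acid and one-carbon metabolism, 4 were higher and 5 lower in cKO LPS against WT LPS cells, among them Got1 (log2 fold change 0.63 ± 0.11) and Pycrl (-0.90 ± 0.20). In medium 4 were higher and 4 lower, with Mat2a (log2 fold change -0.83 ± 0.13), Gclm (2.73 ± 0.41) and Mthfd1 (-0.63 ± 0.15). LPS in WT cells gave 3 higher and 13 lower, with Mat2a (log2 fold change -2.80 ± 0.15), Mthfd1 (-2.17 ± 0.17) and Ahcy (-1.38 ± 0.16). The TPM scale gave 2 higher and 10 lower in cKO LPS against WT LPS cells and 4 and 8 in medium, and leaving out replicate 1 of both cKO groups 3 and 3 under LPS and 3 and 4 in medium. Of 12 further amino acid transporters, 2 were higher and 5 lower in cKO LPS against WT LPS cells, with Slc36a4 (log2 fold change 1.26 ± 0.16), Slc1a5 (-1.66 ± 0.22) and Slc38a7 (-0.91 ± 0.18). In medium 0 were higher and 3 lower, with Slc38a1 (log2 fold change -0.76 ± 0.13), Slc1a5 (-0.56 ± 0.14) and Slc7a8 (-0.41 ± 0.12). LPS in WT cells gave 7 higher and 3 lower, with Slc7a8 (1.999 ± 0.12), Slc1a5 (log2 fold change -2.59 ± 0.16) and Slc7a2 (1.96 ± 0.13). For these transporters the TPM scale gave 1 higher and 8 lower in cKO LPS against WT LPS cells and 4 and 4 for LPS in WT cells, and 2 were lower in medium without replicate 1 of both cKO groups.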

How the data were processed

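RNA of sorted BMDC was sequenced on libraries made with a TruSeq kit, per the labels' protocols. The deposited files give, per gene and library, RSEM expected counts and TPM, which the authors made on mm10, per the submitters' processing notes and the file headers; versions and strandedness are not given in the sources used here. The series' design text instead names a GAIIx instrument, BWA with ANOVA, and TopHat with Cufflinks; no output of these was used here. Expected counts were rounded to whole numbers, filtered with filterByExpr, scaled by TMM and fitted over all 6 groups in edgeR 4.0.16 (robust quasi-likelihood, R 4.3.3), with p-values adjusted by Benjamini-Hochberg over the 11876 tested of 23420 genes and called under 0.05. The SE of a log2 fold change is its size divided by the root of the F statistic. CPM values use the TMM library sizes. The common biological coefficient of variation was 0.133. Totals ranged from 8056831 to 12068759 counts, and intervals on summed counts cover counting error only. Alternatives were DESeq2 1.42.0, upper-quartile or RLE scaling, a filter of 5 CPM in 3 libraries or none, only the compared groups, a replicate block, limma 3.58.1 on log2(TPM + 1) or log2(TPM + 0.1), and fits without single libraries, both first cKO replicates or Rn45s. On the TPM scale always means log2(TPM + 1), or both pseudocounts where a call is said to be lost or to pass. The fits were tested on simulated data.

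Gene members and lists were chosen with earlier results of these data known. Library values were given for Atf4, Ddit3, Ddit4, Trib3, Asns, Chac1, Sesn2, Ppp1r15a and Slc7a11, and for members called with an absolute log2 fold change of at least 1 and a mean log2 CPM of at least 2. From each further list the 3 called genes of smallest p were named, except 1 that is not reported here, and all called interactions of members. Same-numbered libraries were checked for shared deviations over 6224 genes: every pair exceeded 0.1 in WT cytokines against WT medium (correlations 0.374, 0.257 and 0.473) and in no other comparison, and the numbering comes from the sample titles.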

Additional observations from a re-analysis of the deposited data

Results flagged for a closer look

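The results here were flagged because an effect differed between 2 groups under the same contrast, by an interaction term in the edgeR fit over all genes (adjusted p under 0.05). For the LPS response, cKO minus WT, 16 of the 39 tested genes were flagged. Of these 4 were positive and 12 negative, against 7.33% and 10.1% of all genes. The interaction was positive, as a log2 difference, for Nupr1 (1.18), Slc7a1 (1.05), Atf4 (0.53) and Slc3a2 (0.47). It was negative for Chac1 (-3.02), Asns (-2.60), Iars (-1.37), Eif2ak3 (-1.09), Lars (-1.07), Ppp1r15a (-0.77), Mars (-0.76), Eprs (-0.71), Cars (-0.63), Aars (-0.62), Pck2 (-0.58) and Nars (-0.55). Without both first cKO replicates 10 of the 16 were still called, while calls over all genes fell from 2070 to 1268.

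For the LPS response with minus without the cytokines in WT cells, 12 genes were flagged. Of the 39 tested genes 2 were positive (5.13%) and 10 negative (25.6%), against 8.88% and 12.1% of all genes. The share positive was thus under that of all genes. The log2 difference was positive for Phgdh (1.24) and Eif4ebp1 (1.09). It was negative for Chac1 (-1.83), Ppp1r15a (-1.55), Ddit4 (-1.46), Ddit3 (-1.28), Ppp1r15b (-1.11), Aars (-0.77), Psph (-0.77), Wars (-0.75), Mthfd2 (-0.58) and Slc3a2 (-0.42). Granulocyte precursor markers had 4 of 14 called interactions for genotype, all lower, against 10.1% of all genes lower. For the cytokines they had 3 of 14, all lower, against 12.1%, and their part in these results was not tested. Groups of 3 libraries are too small for a test of single outlying libraries.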

How the results depend on the processing

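Of 182 called results of the genes, 134 passed in every alternative and 48 were lost in at least 1, and 0 changed sign in 3144 alternative values. Calls were lost on log2(TPM + 0.1) in 20 cases, log2(TPM + 1) in 19, with only the compared groups in 11 of 179, without a count filter in 9, with upper-quartile scaling in 8, with RLE or DESeq2 in 5 each, and without Rn45s in 3. Leaving out 1 library gave 6 to 12 called genes in cKO medium against WT medium (6 without WT medium replicate 3), 21 to 25 in cKO LPS against WT LPS, 28 to 29 for LPS in WT and 28 to 30 in cKO cells, 9 to 16 for the cytokines alone (9 without WT cytokine replicate 2), 14 to 18 for the cytokines under LPS, 27 to 28 for LPS added to the cytokines, 12 to 20 for the genotype interaction and 8 to 16 for the cytokine interaction. The genotype interaction had 10 genes without both first cKO replicates, while calls over all genes fell from 2070 to 1268, and the cause was not tested. The replicate block groups libraries by the number in their title, in both genotypes. Replicate 1 differed between cKO and WT groups in Xist and Ddx3y, so there the block does not join libraries of the same mouse. With the replicate block 2 calls were lost, Eif2ak4 in cKO LPS against WT LPS (-0.39, adjusted p = 0.0534) and the Iars interaction (-1.39, adjusted p = 0.0521), and no other call was lost. The block also gave 7 calls not made without it: Ddit3 (0.69) and Ppp1r15b (-0.28) in cKO medium against WT medium, Psat1 (-0.44) and Slc1a4 (-1.15) for the cytokines alone, Eif2ak3 (0.49) and Ppp1r15a (-0.36) for the cytokines under LPS, and the Tars genotype interaction (-0.66). The blocked count for the cytokines alone was 17 against 15 without the block. Low counts limit Chac1, Slc1a4, Atf5 and, in cKO LPS cells, Slc7a5, and leave Stc2, Cth and Slc7a3 untested. Of 44 printed results that were not called, 22 passed in at least 1 alternative and 18 changed sign in at least 1. The sign of the uncalled log2 fold change turned in cKO medium against WT medium cells for Sesn2 (-0.060 with log2(TPM + 1), -0.065 with log2(TPM + 0.1), -0.25 to 0.29 over single libraries left out), Psat1 (-0.21 to 0.063 over single libraries left out), Phgdh (-0.32 to 0.23 over single libraries left out), Slc7a11 (-0.0090 with log2(TPM + 1), -0.0094 with log2(TPM + 0.1), -0.010 with both first cKO replicates left out, -0.010 to 0.15 over single libraries left out), Slc3a2 (-0.038 with log2(TPM + 1), -0.039 with log2(TPM + 0.1), -0.00062 with both first cKO replicates left out, -0.00065 to 0.10 over single libraries left out), Mars (-0.086 to 0.10 over single libraries left out) and Eprs (-0.15 to 0.10 over single libraries left out). The sign of the uncalled log2 fold change turned in cKO LPS against WT LPS cells for Psat1 (0.056 with both first cKO replicates left out, -0.21 to 0.082 over single libraries left out) and Phgdh (-0.33 to 0.018 over single libraries left out). The sign of the uncalled log2 fold change turned with LPS in WT cells for Eif4ebp1 (-0.13 to 0.18 over single libraries left out) and Chac1 (-0.016 with log2(TPM + 0.1), -0.080 to 0.53 over single libraries left out). The sign of the uncalled log2 fold change turned with LPS in cKO cells for Trib3 (-0.059 with upper-quartile, -0.38 with log2(TPM + 1), -0.41 with log2(TPM + 0.1), -0.051 to 0.19 over single libraries left out), Eif4ebp1 (-0.12 with upper-quartile, -0.49 with log2(TPM + 1), -0.49 with log2(TPM + 0.1), -0.039 to 0.11 over single libraries left out), Slc7a1 (-0.34 to 0.091 over single libraries left out), Aars (-0.051 with upper-quartile, -0.40 with log2(TPM + 1), -0.42 with log2(TPM + 0.1), -0.0047 to 0.22 over single libraries left out) and Cars (-0.11 with upper-quartile, -0.48 with log2(TPM + 1), -0.50 with log2(TPM + 0.1), -0.023 with both first cKO replicates left out, -0.014 to 0.15 over single libraries left out). The sign of the uncalled log2 fold change turned in the genotype interaction for Ddit4 (-0.094 with log2(TPM + 0.1), -0.25 to 0.32 over single libraries left out) and Phgdh (0.019 with RLE, 0.023 with DESeq2, 0.12 with both first cKO replicates left out, -0.41 to 0.17 over single libraries left out).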
